A study of Mus musculus with 12 samples.

Results

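The transcription factor genes of the cardiac mesoderm are described here, 10 of the 55141 genes in the deposited count table. They are *Gata4*, *Gata5* and *Gata6* of the GATA zinc-finger family, the T-box genes *Tbx5* and *Tbx20*, the homeobox genes *Nkx2-5* and *Isl1*, the MADS-box gene *Mef2c*, and the basic helix-loop-helix genes *Hand1* and *Hand2*. Each symbol was matched to a single Ensembl gene in the table of FPKM values, and its counts were taken by that identifier from the 12 libraries. The matching used no measured value, but the genes were put together with earlier results of these data known, so their counts below describe them and are no test of an independently chosen list. Gastruloids are aggregates of mouse embryonic stem cells that break symmetry and form a body axis in culture. Here they were made from 129/SVEV cells, 300 per well, and all received a pulse of the Wnt agonist CHIR 99021 at 3 µM, for 24 h, after 48 h of aggregation. They were enclosed in a dextran-based hydrogel at 72 h or at 96 h and all were collected at 120 h. The gel was either at 1.0 mM, called the softer gel here, or at 1.5 mM, the stiffer gel. Each of the 4 groups (72 h or 96 h, softer or stiffer gel) has 3 libraries, and gastruloids without a gel were not analysed here. About 30 gastruloids were pooled per library after release with dextranase, and the study describes the 3 replicates of a group as independent.

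The heart arises from mesoderm that leaves the primitive streak and moves forward. There, BMP and FGF signals help turn on a set of transcription factors that bind DNA together and maintain each other's expression. GATA factors, *Nkx2-5* and *Tbx5* act on the promoters of contractile protein genes, *Isl1* and *Mef2c* mark the second heart field, which adds cells to both ends of the heart tube, and *Hand1* and *Hand2* act in the ventricles. None of these genes is confined to the heart: *Gata4* and *Gata6* also act in endoderm, *Isl1* in motor neurons, *Mef2c* in muscle and endothelium, and the *Hand* genes in other lateral mesoderm. In RNA from whole gastruloids, fewer cells of a type and less RNA per cell cannot be told apart.

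Total counts per library ran from 23011791 to 27609422. All 10 genes passed the filter on low counts in every comparison. Counts of the 9 genes other than *Tbx5* ran from 13 to 5179 per library, while *Tbx5* had 1 to 117 counts. A ribosomal RNA gene, CT010467.1, took 6.12% of the counts in replicate 1 of the 72 h, stiffer gel group and 0.207% to 4.21% elsewhere, and leaving it out changed none of the numbers of called members below. Levels are given as CPM, counts relative to library totals scaled by TMM, for replicates 1, 2 and 3 in that order. Differences are log2 fold changes from the quasi-likelihood F test of edgeR, positive when a gene was higher at 72 h than at 96 h or higher in the stiffer than in the softer gel. A gene was called differentially expressed (DE) when its Benjamini-Hochberg adjusted p was under 0.05 with a log2 fold change beyond 1 in size.

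Sequences upstream of the start site were found in the RefSeq promoter table (GRCm38.p6) for 6 of the 10 genes, *Gata5*, *Tbx20*, *Nkx2-5*, *Isl1*, *Mef2c* and *Hand2*, with 8 start sites in all because *Mef2c* has 3. The 250 bases before the start are shown for a gene of each of 4 families, to display where letters bound by other factors of the set occur. Capitals mark the GATA letters, searched as AGATAA and as AGATAG, both also with a T in first place, and the NKX2-5 letters AAGTG, each on both strands. The windows lie on mm10 at chr9:24774304-24774553 (minus strand) for *Tbx20*, chr13:116309689-116309938 (minus) for *Isl1*, chr13:83503784-83504033 (plus) for the first start of *Mef2c*, and chr8:57320733-57320982 (plus) for *Hand2*.
Tbx20: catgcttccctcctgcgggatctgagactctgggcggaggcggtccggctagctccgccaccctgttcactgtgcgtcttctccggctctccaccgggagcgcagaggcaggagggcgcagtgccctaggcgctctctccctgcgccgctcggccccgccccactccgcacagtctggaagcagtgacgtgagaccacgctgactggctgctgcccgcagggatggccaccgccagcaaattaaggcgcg
Isl1: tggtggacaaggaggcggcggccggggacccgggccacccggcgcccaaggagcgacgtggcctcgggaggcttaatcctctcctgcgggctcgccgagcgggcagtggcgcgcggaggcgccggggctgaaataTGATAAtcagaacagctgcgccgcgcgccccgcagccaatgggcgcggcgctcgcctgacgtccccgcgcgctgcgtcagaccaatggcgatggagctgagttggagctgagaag
Mef2c: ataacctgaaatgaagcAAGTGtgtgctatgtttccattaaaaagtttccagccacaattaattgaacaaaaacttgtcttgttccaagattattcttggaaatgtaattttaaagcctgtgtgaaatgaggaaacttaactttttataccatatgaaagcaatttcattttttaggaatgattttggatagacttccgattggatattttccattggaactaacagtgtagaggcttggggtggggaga
Hand2: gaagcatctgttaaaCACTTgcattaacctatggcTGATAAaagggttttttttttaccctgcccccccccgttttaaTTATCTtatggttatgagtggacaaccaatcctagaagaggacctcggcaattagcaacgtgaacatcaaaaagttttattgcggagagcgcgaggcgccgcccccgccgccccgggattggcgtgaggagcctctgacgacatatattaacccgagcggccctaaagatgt
In the *Hand2* window the GATA letters began 215 and 172 bases before the start, and in that of *Isl1* 115 bases before it. The NKX2-5 letters began 235 bases before the start of *Hand2* and 233 before the first start of *Mef2c*, both of them overlapping a match to the E-box letters CANNTG. The *Hand2* window lies wholly within an exon of the antisense gene *Hand2os1*. The *Tbx20* window held neither the GATA nor the NKX2-5 letters and had a GC content of 68.8%, near that of *Isl1* at 71.2%, whereas *Hand2* was at 49.2% and the first start of *Mef2c* at 33.6%, beside a median of 52.4% over 32851 promoter windows. GATA letters were in 2 of the 8 windows (26.5% of all windows), NKX2-5 letters in 4 (40.7%), E-box letters in 6 (66.2%) and the T-box letters AGGTGT in 1 (11.8%). The windows with NKX2-5 letters were all 3 of *Mef2c* and that of *Hand2*, so they stand for fewer genes than windows.

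The 10 genes were higher in gastruloids embedded at 72 h than in those embedded at 96 h, and the measured difference was larger in the softer gel. There, 10 of 10 were DE and higher at 72 h, where 2.61% of the 15763 genes tested were. For the stiffer gel 4 of 10 were DE and higher at 72 h, *Gata4*, *Tbx20*, *Nkx2-5* and *Mef2c*, beside 1.61% of 15683 genes, and 6 of 10 passed the adjusted p alone, beside 10.4%. The median log2 fold change of the 10 genes was 2.34 in the softer gel and 1.05 in the stiffer gel, against -0.01 over all genes tested in either gel. Every library at 72 h was above every library at 96 h for 10 of 10 genes in the softer gel (14.6% of all genes) and for 7 of 10 in the stiffer gel (20.0%). Summed over the 10 genes, the level was 611 to 1052 CPM at 72 h and 98.6 to 253 CPM at 96 h in the softer gel, and 508 to 925 and 255 to 416 CPM in the stiffer gel.

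**Figure D1:**
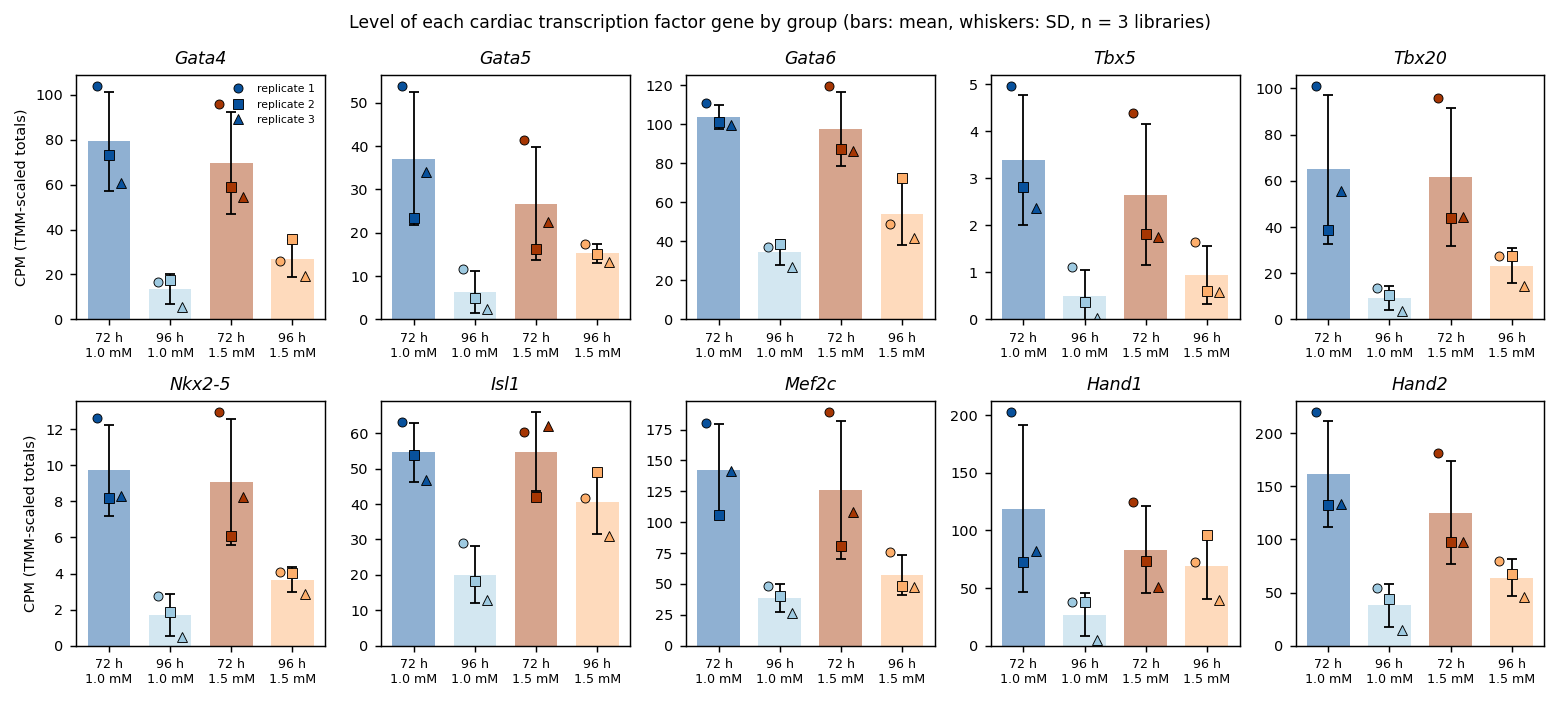
CPM of each of the 10 genes (vertical axis, linear from 0) in the 4 groups (horizontal axis), with bars for the mean, whiskers for the SD and a symbol for each of 3 replicates. In 1.0 mM gels every 72 h library lies above every 96 h library in all 10 panels, while in 1.5 mM gels the libraries of *Gata5*, *Isl1* and *Hand1* overlap.

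Among the GATA genes, *Gata4* (ENSMUSG00000021944, chromosome 14 of mm10, 63198922 to 63271692, minus strand) encodes a central activator of cardiac genes. In the softer gel it was at 104, 73.4 and 60.8 CPM after embedding at 72 h and at 16.8, 17.7 and 5.74 CPM after embedding at 96 h. The stiffer gel had 95.8, 58.7 and 54.3 CPM at 72 h and 25.9, 35.6 and 19.4 CPM at 96 h. The lowest 72 h library was thus above the highest 96 h library in both gels. The log2 fold change was 2.57 (SE 0.331, adjusted p = 0.000992) in the softer gel, or 5.96-fold, and 1.36 (SE 0.249, adjusted p = 0.00776) in the stiffer gel. *Gata6* (ENSMUSG00000005836, chromosome 18) is active in early heart and in endoderm. It was at 111, 101 and 99.6 CPM at 72 h against 37.2, 38.9 and 27.0 CPM at 96 h in the softer gel. Levels in the stiffer gel were 119.5, 87.4 and 86.3 CPM at 72 h and 49.0, 72.2 and 41.5 CPM at 96 h. Its log2 fold change in the softer gel, 1.60 (SE 0.126, adjusted p = 7.05e-05), had the smallest adjusted p of the set. It also passed the adjusted p in the stiffer gel (0.0184) but at 0.85 (SE 0.196) stayed under the fold threshold. *Gata5* (ENSMUSG00000015627, chromosome 2, 180325133 to 180334699, minus), known from endocardium and early cardiac progenitors, was at 53.8, 23.5 and 34.0 CPM at 72 h and 11.6, 4.86 and 2.32 CPM at 96 h in the softer gel. Its levels in the stiffer gel, 41.4, 16.3 and 22.5 CPM at 72 h and 17.4, 15.1 and 13.2 CPM at 96 h, overlapped. The log2 fold change was 2.57 (SE 0.450, adjusted p = 0.00489) in the softer gel and 0.81 (SE 0.288, adjusted p = 0.0770) in the stiffer gel.

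The T-box gene *Tbx20* (ENSMUSG00000031965, chromosome 9, 24718138 to 24774303, minus), required for growth of the heart chambers, had the largest fitted difference of the 10 genes in the softer gel. It was at 101, 38.8 and 55.4 CPM at 72 h and at 13.4, 10.7 and 3.71 CPM at 96 h. For the stiffer gel the levels were 96.0, 44.0 and 44.4 CPM at 72 h and 27.5, 27.6 and 14.4 CPM at 96 h. Replicate 1 was well above the other replicates at 72 h in both gels, and no library at 96 h reached the lowest at 72 h. The log2 fold change was 2.82 (SE 0.414, adjusted p = 0.00196) in the softer gel and 1.40 (SE 0.330, adjusted p = 0.0190) in the stiffer gel. *Tbx5* (ENSMUSG00000018263, chromosome 5, 119832668 to 119885219, plus), which marks the first heart field and the future atria and left ventricle, was the lowest of the set. Its counts in the softer gel were 117, 69 and 57 at 72 h and 29, 9 and 1 at 96 h. The stiffer gel had 99, 41 and 43 counts at 72 h and 44, 15 and 15 at 96 h. In the softer gel the counts at 72 h were all the higher ones, whereas in the stiffer gel the highest count at 96 h exceeded the lowest at 72 h, and only the scaled levels, with a lowest of 1.74 CPM at 72 h and a highest of 1.65 CPM at 96 h, stood just apart. Its log2 fold change was 2.75 (SE 0.599, adjusted p = 0.0153) in the softer gel and 1.47 (SE 0.490, adjusted p = 0.0631) in the stiffer gel.

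*Nkx2-5* (ENSMUSG00000015579, chromosome 17, 26838664 to 26845009, minus), the homeobox gene of cardiac progenitors and early heart muscle, was at 12.6, 8.21 and 8.32 CPM at 72 h and 2.76, 1.85 and 0.478 CPM at 96 h in the softer gel. It was at 12.9, 6.06 and 8.23 CPM at 72 h and 4.09, 4.05 and 2.84 CPM at 96 h in the stiffer gel. The libraries at 72 h were the 3 highest in either gel. The log2 fold change was 2.53 (SE 0.413, adjusted p = 0.00346) in the softer gel and 1.30 (SE 0.276, adjusted p = 0.0132) in the stiffer gel. *Isl1* (ENSMUSG00000042258, chromosome 13, 116298281 to 116309689, minus) was at 63.2, 53.8 and 46.8 CPM at 72 h and 28.9, 18.3 and 13.0 CPM at 96 h in the softer gel. The corresponding values in the stiffer gel were 60.2, 42.0 and 62.1 CPM and 41.7, 49.2 and 31.0 CPM, which overlapped. *Isl1* had the smallest difference of the 10 genes in the softer gel, 1.45 (SE 0.230, adjusted p = 0.00296) on the log2 scale. The value in the stiffer gel was 0.43 (SE 0.180, adjusted p = 0.124). *Mef2c* (ENSMUSG00000005583, chromosome 13, 83504034 to 83667080, plus), a target of *Isl1* and GATA factors in the second heart field, was at 180.2, 105 and 141 CPM at 72 h and 48.7, 40.2 and 26.1 CPM at 96 h in the softer gel. It was at 189, 80.6 and 109 CPM at 72 h against 75.8, 48.4 and 47.1 CPM at 96 h in the stiffer gel. The embedding times were apart in both gels. The log2 fold change was 1.90 (SE 0.221, adjusted p = 0.000515) in the softer gel and 1.14 (SE 0.290, adjusted p = 0.0258) in the stiffer gel.

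*Hand1* (ENSMUSG00000037335, chromosome 11, 57828705 to 57832818, minus), a factor of the left ventricle and of extraembryonic and lateral mesoderm, was at 202, 72.4 and 82.2 CPM at 72 h and 37.6, 38.1 and 5.29 CPM at 96 h in the softer gel. The stiffer gel had 125, 73.7 and 51.1 CPM at 72 h and 72.9, 95.8 and 39.2 CPM at 96 h. The groups were apart in the softer gel and interleaved in the stiffer gel. Its log2 fold change in the softer gel, 2.15 (SE 0.562, adjusted p = 0.0352), had the largest adjusted p of the set. DESeq2 gave it an adjusted p of 0.107, and without replicate 1 at 72 h, replicate 1 at 96 h or replicate 2 at 96 h the edgeR adjusted p was 0.0749, 0.0563 or 0.0675. The low-count gene *Tbx5* was the other one to lose its call, with an adjusted p of 0.0805 by DESeq2 and of 0.0718 by edgeR without replicate 2 at 96 h. For the stiffer gel *Hand1* was at 0.26 (SE 0.347, adjusted p = 0.637), and the sign turned to -0.16 without replicate 1 at 72 h and to -0.02 without replicate 3 at 96 h. *Hand2* (ENSMUSG00000038193, chromosome 8, 57320983 to 57324633, plus), a factor of the right ventricle and outflow tract, was at 219, 132 and 134 CPM at 72 h and 54.6, 44.0 and 15.0 CPM at 96 h in the softer gel. It was at 182, 97.2 and 97.2 CPM at 72 h and 79.4, 67.5 and 45.6 CPM at 96 h in the stiffer gel. Unlike for *Hand1*, the embedding times were apart in both gels. The log2 fold change was 2.10 (SE 0.362, adjusted p = 0.00444) in the softer gel and 0.96 (SE 0.262, adjusted p = 0.0324) in the stiffer gel, the latter under the fold threshold.

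**Figure D2:**
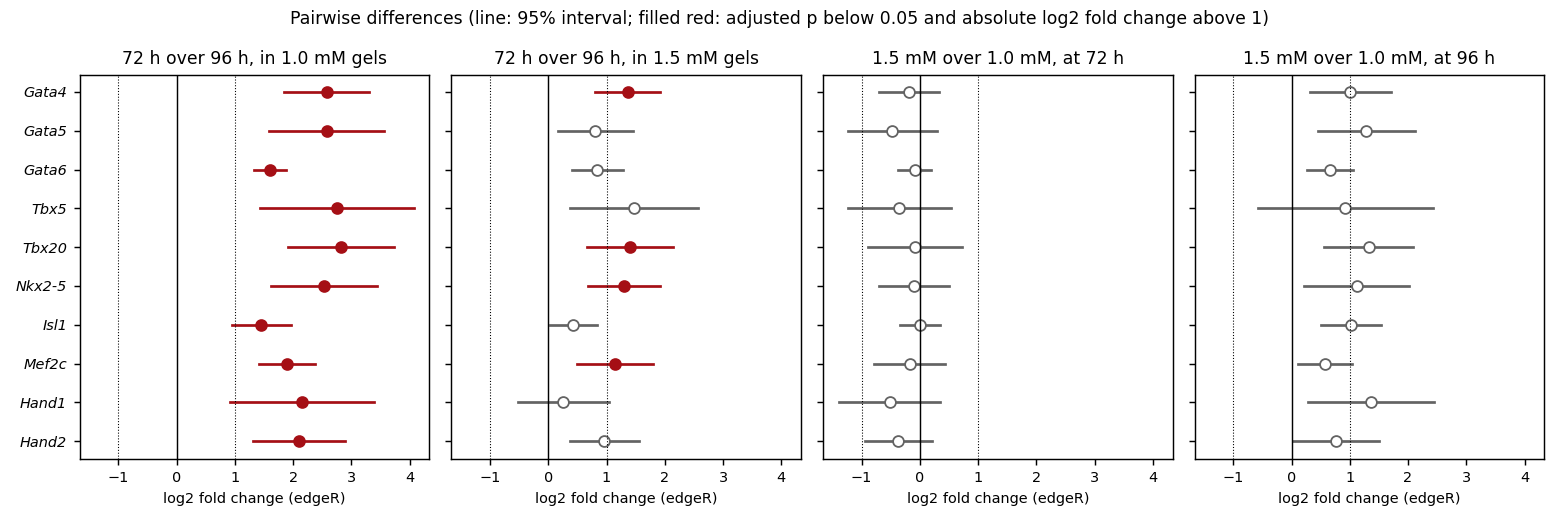
Log2 fold change of each gene (horizontal axis) with its 95% interval in the 4 pairwise comparisons, with filled points where the gene was DE. All 10 points are filled for embedding time in 1.0 mM gels and 4 in 1.5 mM gels, and none for gel concentration, where the points lie between -0.52 and 0.00 at 72 h and between 0.58 and 1.36 at 96 h.

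*Gata5*, *Gata6* and *Hand2* each overlap a gene on the other strand in the GENCODE annotation, and the strand setting of the counts is not given in the sources used here, so reads of such a pair may not have been told apart. *Gata5os* shares 258 of the 3277 exonic bases of *Gata5* and had 0 to 5 counts per library. *1010001N08Rik* shares 93 of the 6508 of *Gata6* and had 27 to 213 counts, and *Hand2os1* shares 461 of the 2351 of *Hand2* and had 50 to 729 counts.

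With each library left out in turn, 8 to 10 genes were DE in the softer gel and 1 to 6 in the stiffer gel. The share of all genes called in these fits is not reported here, so the changes in number were not set against it. *Gata4* was the 1 gene still DE in the stiffer gel without replicate 1 at 72 h (log2 fold change 1.06, adjusted p = 0.00294), and also the 1 gene without replicate 3 at 96 h (1.18, adjusted p = 0.0341). Without replicate 1 at 72 h, *Tbx20* was at 0.93, *Nkx2-5* at 0.96 and *Mef2c* at 0.72, which passed the adjusted p (0.0102, 0.00879 and 0.0178) but not the fold threshold. Without replicate 3 at 96 h the same genes were at 1.15, 1.15 and 1.02, with adjusted p of 0.0667, 0.0569 and 0.0996. The members also varied together between the replicates of a group. Replicate 1 at 72 h had the highest level of 10 of 10 genes in the softer gel and of 9 of 10 in the stiffer gel, with *Isl1* as the exception. Replicate 3 at 96 h had the lowest level of all 10 in both gels. The share of all genes that were highest or lowest in these libraries was not computed. Replicate 1 at 72 h in the stiffer gel was also the library with the highest share of the ribosomal RNA gene, 6.12%, and leaving that gene out gave the same 4 DE members.

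**Figure D3:**
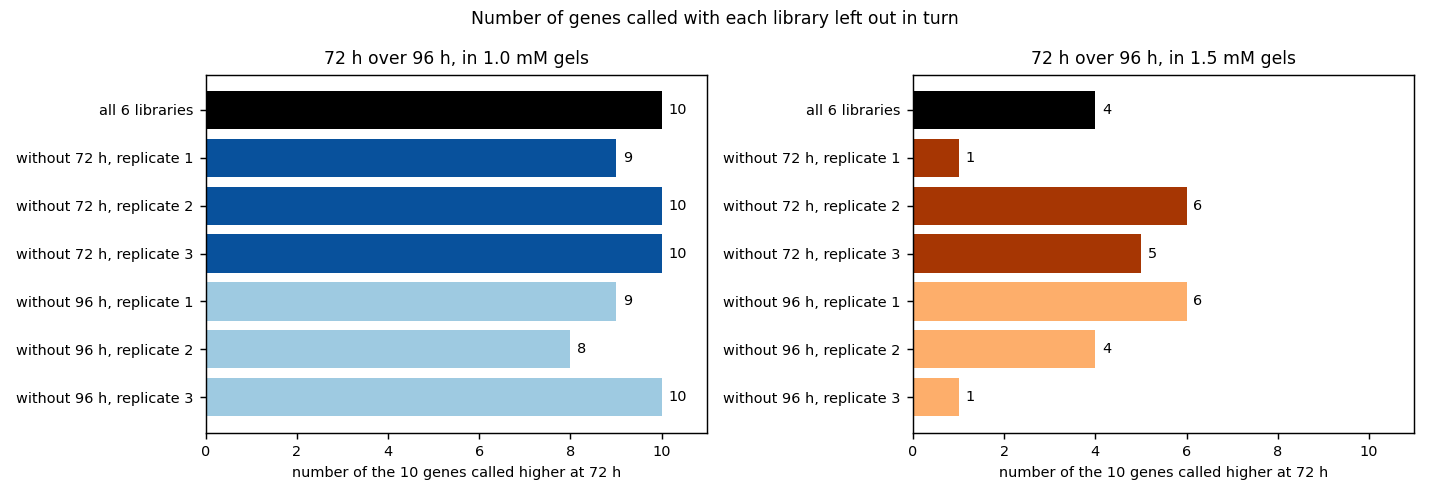
Number of the 10 genes called DE and higher at 72 h (horizontal axis) with all 6 libraries and with each library left out, in 1.0 mM gels on the left and 1.5 mM gels on the right. The count stays between 8 and 10 on the left and falls to 1 on the right without replicate 1 at 72 h or replicate 3 at 96 h. The share of all genes called in each fit is not shown.

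Gel concentration was compared within each embedding time. In gastruloids embedded at 72 h, edgeR called 0 of the 10 genes DE between the gels (0% of 15563 genes), with 0 of 10 at an unadjusted p under 0.05 (6.90% of all genes in either direction), and DESeq2 and limma-voom also called 0 of 10. The log2 fold changes ran from -0.52 for *Hand1* to 0.00 for *Isl1*, with a median of -0.18, and 1 of 10 was above 0, beside 49.4% of all genes. For *Gata6* the 95% interval of the difference was -0.37 to 0.19, and for *Isl1* -0.34 to 0.35. The intervals of *Hand1* (-1.39 to 0.35), *Gata5* (-1.23 to 0.29) and *Tbx5* (-1.23 to 0.53) still held differences beyond 1 in size. In gastruloids embedded at 96 h all 10 estimates were above 0, that is higher in the stiffer gel, beside 48.6% of all genes, with log2 fold changes from 0.58 (*Mef2c*) to 1.36 (*Hand1*) and a median of 1.01. With edgeR 0 of 10 were DE (0% of 15861 genes), as with DESeq2 and limma-voom. An unadjusted p under 0.05 was reached by 9 of 10, all but *Tbx5*, where 5.04% of all genes reached it in that direction, and the libraries of the gels did not overlap for 7 of 10 (7.46% of all genes). The smallest adjusted p of the members was that of *Isl1*, at 1.02 (SE 0.234, adjusted p = 0.189), followed by *Tbx20* at 1.33 (SE 0.352, adjusted p = 0.260). The comparisons of gel and of embedding time share libraries, so the level at 96 h in the softer gel enters both. Replicate 3 of that group had the lowest level of all 10 genes, at a sum of 98.6 CPM beside 253 and 215 CPM. With each library left out in turn, all 10 estimates at 96 h stayed above 0. They then ran from 0.64 to 1.27 for *Gata4*, 0.87 to 1.70 for *Hand1*, 0.33 to 0.78 for *Mef2c* and 0.26 to 2.27 for *Tbx5*. Libraries of the gels share replicate numbers, and a fit with the number as a block called 6 of 10 at 96 h (*Gata4*, *Gata5*, *Tbx20*, *Nkx2-5*, *Isl1* and *Hand1*), beside 0.322% of all genes in that fit. Between gels at 96 h, 5 of 6 libraries correlated best with their own number, but the labels do not say whether the numbers pair the libraries.

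Whether the difference between embedding times varied with the gel was asked with an interaction term in a fit of the 12 libraries. All 10 estimates were negative, that is a smaller difference in the stiffer gel, from -0.75 for *Gata6* and -0.75 for *Mef2c* to -1.88 for *Hand1*, with a median of -1.21, while 51.6% of all genes were positive. With edgeR 0 of 10 were called (0% of 16388 genes), as with DESeq2 and limma-voom, and the adjusted p was 0.953 for each. An unadjusted p under 0.05 was found for 8 of 10, the exceptions being *Tbx5* and *Mef2c*, beside 1.96% of all genes in that direction. The 95% interval was -3.07 to -0.44 for *Gata5*, -1.73 to -0.30 for *Isl1* and -3.18 to 0.64 for *Tbx5*. The smaller difference in the stiffer gel was therefore not significant for any of the 10 genes after adjustment over all genes. With each library left out in turn, all 10 interaction estimates stayed negative. They then ran from -1.52 to -0.83 for *Gata4*, -2.32 to -1.26 for *Hand1*, -1.18 to -0.49 for *Mef2c* and -2.62 to -0.59 for *Tbx5*. Across both gels, with gel concentration in the fit, 8 of 10 genes were DE and higher at 72 h (2.36% of 16388 genes). *Isl1* was at 0.93 (SE 0.211, adjusted p = 0.00413) and *Hand1* at 1.19 (SE 0.467, adjusted p = 0.0654), while the other 8 ran from 1.22 for *Gata6* to 2.08 for *Tbx20*. Between the gels across both embedding times, edgeR, DESeq2 and limma-voom called 0 of 10 (0.00610% of all genes with edgeR), 1 of 10 (*Isl1*) had an unadjusted p under 0.05, beside 7.04% of all genes in that direction, and the log2 fold changes ran from 0.12 for *Tbx5* to 0.56 for *Tbx20*.

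Levels were compared between genes in FPKM, which the authors computed per length. Over the 12 libraries the order of the mean FPKM was *Hand2* (35.2 FPKM), *Hand1* (29.9), *Gata6* (17.4), *Isl1* (12.2), *Mef2c* (11.4), *Gata4* (11.2), *Gata5* (4.82), *Tbx20* (3.32), *Nkx2-5* (2.97) and *Tbx5* (0.364). The ranges of neighbours in this order overlapped in all 9 pairs over the 12 libraries, which mix the groups. Within a group, 5 of 9 pairs overlapped at 72 h and 8 of 9 at 96 h in the softer gel, and 6 and 5 of 9 in the stiffer gel. At 72 h in the softer gel, *Hand1* lay above *Gata6*, *Gata6* above *Gata4*, *Isl1* above *Gata5* and *Nkx2-5* above *Tbx5* without overlap. *Tbx5* was listed at 0 FPKM in replicate 3 of 96 h, softer gel. The order was not the same in each group. In mean FPKM *Gata4* was above *Isl1* at 72 h and below it at 96 h in both gels, but their ranges overlapped in 3 of the 4 groups and were apart at 96 h in the stiffer gel, at 5.24 to 8.42 FPKM for *Gata4* and 9.28 to 12.9 FPKM for *Isl1*. *Hand1* was above *Hand2* in mean FPKM at 96 h in the stiffer gel, where the ratio of *Hand1* to *Hand2* was 1.05, 1.59 and 0.964 in the 3 libraries and their ranges overlapped. The ratio of *Gata4* to *Gata6* in FPKM was 0.857, 0.779 and 0.600 at 72 h and 0.417, 0.510 and 0.215 at 96 h in the softer gel. It was 0.786, 0.630 and 0.581 at 72 h and 0.519, 0.524 and 0.510 at 96 h in the stiffer gel, so that this ratio was higher in each 72 h library than in any 96 h library of the same gel. The ratio of *Gata5* to *Gata4* overlapped between the times in both gels. That of *Hand1* to *Hand2* overlapped in the softer gel and was lower in each 72 h library in the stiffer gel. How often ratios of other genes stand apart was not computed.

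**Figure D4:**
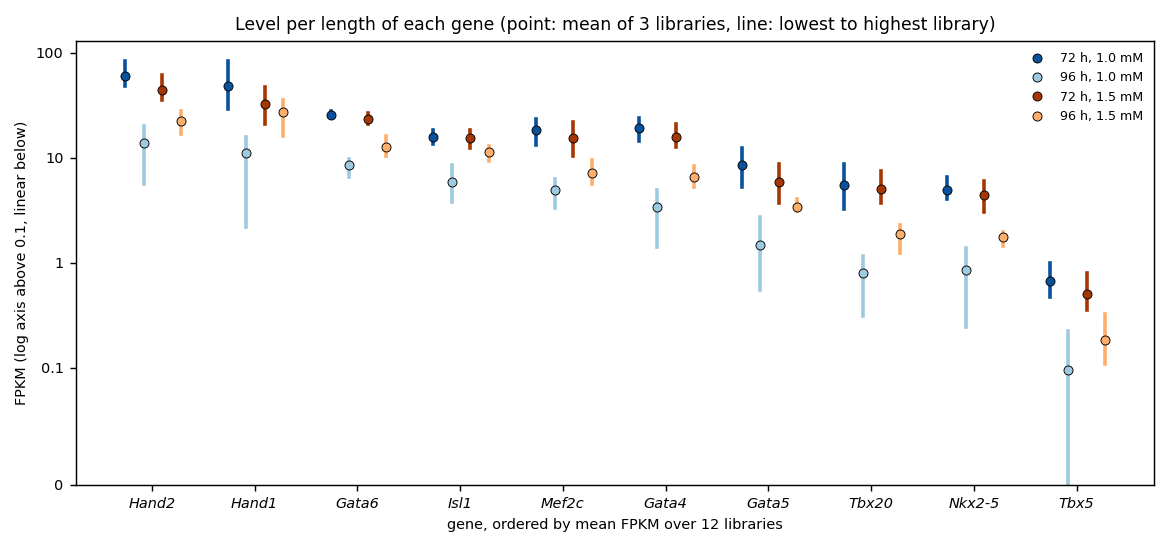
FPKM of each gene (vertical axis, logarithmic above 0.1 and linear below) in the 4 groups, with points for the mean of 3 libraries and lines from the lowest to the highest. *Hand2* and *Hand1* stand highest and *Tbx5* lowest, and the mean of the 96 h, 1.0 mM group is the lowest for each gene.

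The profiles of the genes over the 12 libraries were compared with those of 11344 genes that had a mean of 100 counts or more, by the root mean square difference of centred log2 CPM, given as a description. *Tbx5*, with fewer counts, was left out. Other members were among the nearest genes of several: the 3 nearest of *Tbx20* were *Nkx2-5* (0.253), *Gata4* (0.290) and *Gata5* (0.364), and those of *Nkx2-5* were *Tbx20* (0.253), *Gata4* (0.254) and *Gata5* (0.299). The nearest of *Gata4* was *Cfc1* (0.192), a Nodal co-receptor gene, ahead of *Nkx2-5* (0.254) and *Tbx20* (0.290). For *Gata5* the nearest were *Nkx2-5* (0.299), *Myl4* (0.343), an atrial myosin light chain gene, and *Hand2* (0.356). *Hand2* was nearest to its antisense neighbour *Hand2os1* (0.201), then *Bmper* (0.280), which encodes a BMP-binding protein, and *Slc30a3* (0.286). *Mef2c* had *Mme* (0.164), *Bmper* (0.177) and *Jcad* (0.190), and *Gata6* had *Slc46a3* (0.179), *Smarcd3* (0.195), a cardiac chromatin remodelling subunit, and *Dok4* (0.211). The neighbours of *Isl1* were *Dkk1* (0.257), a secreted Wnt inhibitor, *Ptpre* (0.286) and *Tcf21* (0.290), a factor of pharyngeal and epicardial mesoderm. *Hand1* had the largest distances to its neighbours, *Nr1h5* (0.408), *Hand2* (0.482) and *Pdlim3* (0.498). The distances are not scaled to a gene's own root mean square deviation, which was 1.24 for *Hand1* and 0.690 for *Isl1*. They therefore do not rank the members by how alike their neighbours are. These distances share the libraries and their scaling.

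Other genes of the cardiac pathway were measured in the same comparisons. Of all genes tested, 2.61% were DE and higher at 72 h in the softer gel and 1.61% in the stiffer gel. The share of all genes DE and lower at 72 h is not reported here, so counts of lower genes in the lists below were not set against it. Of the myocardial target genes, which encode contractile and calcium-handling proteins, 13 of 16 tested were DE and higher at 72 h in the softer gel, with a median log2 fold change of 1.93, and 8 to 14 with each library left out, the 8 without replicate 2 at 96 h. Between times in the stiffer gel, edgeR, DESeq2 and limma-voom called 0 of 16, 1 had an unadjusted p under 0.05 and all 16 estimates were above 0 with a median of 0.56, though 11 of 16 were without replicate 1 at 72 h. *Myl7*, a myosin light chain gene of the early heart, was at 2.92 (SE 0.436, adjusted p = 0.00216) in the softer gel and 1.24 (SE 0.491, adjusted p = 0.103) in the stiffer gel. *Myl4* was at 2.55 and 0.90, *Ryr2*, the calcium release channel gene, at 2.01 and 0.71, and *Tnni1*, an embryonic troponin gene, at 1.86 and 0.47. Their adjusted p was 0.00813, 0.00611 and 0.00471 in the softer gel and 0.150, 0.143 and 0.276 in the stiffer gel. The summed level of the list was 269 to 655 CPM at 72 h and 61.3 to 176 CPM at 96 h in the softer gel, and 173 to 423 and 114 to 241 CPM in the stiffer gel. Between gels at 72 h, edgeR called 0 of the 16. Their estimates were all lower in the stiffer gel, with a median of -0.91, where 49.4% of all genes were above 0. Of the 16, 8 had an unadjusted p under 0.05, beside 6.90% of all genes in either direction. *Nppa* and *Nppb*, natriuretic peptide genes of chamber myocardium, had at most 1 count in any library.

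Among 19 tested genes of cardiac inducing and repressing signals, 9 were DE and higher and 1 lower at 72 h in the softer gel, and 5 and 1 in the stiffer gel, where the 5 became 0 without replicate 3 at 96 h and 3 without replicate 1 at 72 h. *Sfrp5*, a secreted Wnt inhibitor gene of the early heart, was higher at 72 h in both gels (log2 fold changes 2.63 and 1.77, adjusted p = 0.000476 and 0.0156). *Fgf10*, a ligand gene of the second heart field, was at 1.48 and 0.97, and *Bmp2* at 1.13 and 0.95, both DE in the softer gel and under the fold threshold in the stiffer gel. *Nodal* was lower at 72 h in both (-1.99 and -1.90, adjusted p = 0.00388 and 0.00805). Of 25 other cardiac transcription regulators tested in the softer gel, 7 were DE and higher and 3 lower at 72 h, and of 26 in the stiffer gel 1 and 2. With each library left out in turn, 5 to 9 were higher and 2 to 3 lower in the softer gel, and 0 to 1 and 1 to 2 in the stiffer gel. *Myocd*, a coactivator of muscle genes, was higher by 2.31 in the softer gel (adjusted p = 0.00599) and by 1.53 in the stiffer gel (adjusted p = 0.0224). It was the 1 gene of the list called higher in the stiffer gel, and none was without replicate 3 at 72 h or without replicate 2 or 3 at 96 h. *Tbx18*, which is expressed in somites and in the inflow of the heart, had log2 fold changes of -1.67 and -1.12 (adjusted p = 0.00106 and 0.0232). *Tbx18* thus moved opposite to the 10 genes in both gels. The summed level was 852 to 1018 CPM at 72 h and 430 to 524 CPM at 96 h for the signals in the softer gel, and 871 to 978 and 409 to 575 CPM in the stiffer gel. That of the other regulators was 1096 to 1234 and 1068 to 1121 CPM, and 1134 to 1190 and 1112 to 1257 CPM.

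**Figure D5:**
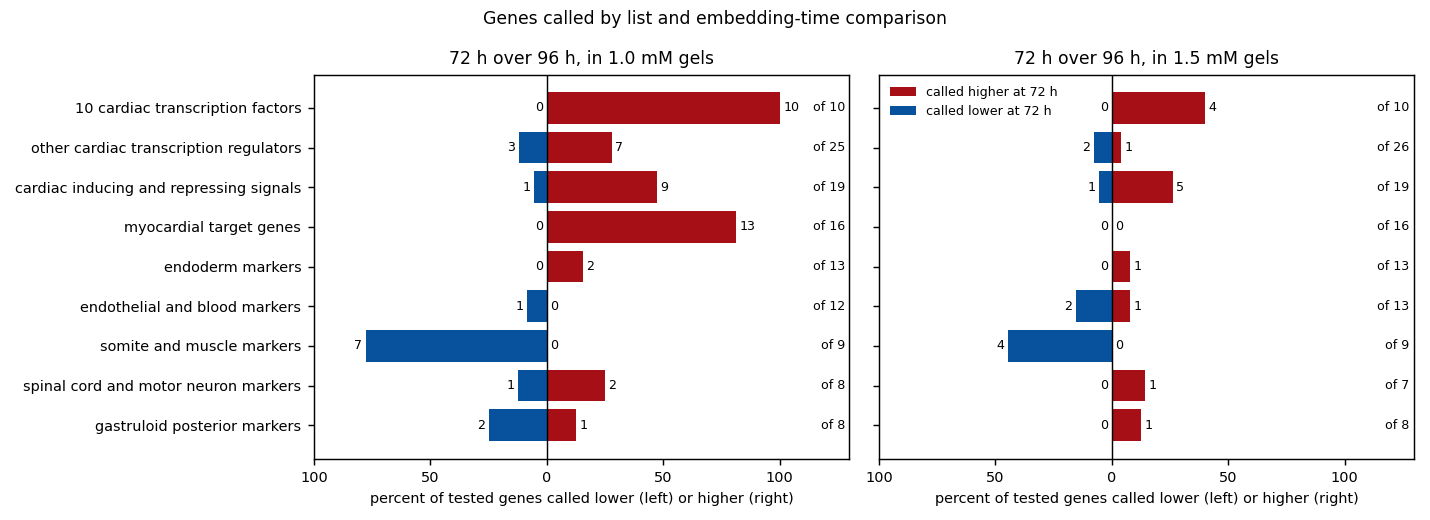
Percent of the tested genes of each list (horizontal axis) called DE and higher (red, right) or lower (blue, left) at 72 h, with 1.0 mM gels on the left and 1.5 mM gels on the right. The 10 transcription factors and the myocardial target genes have the longest bars to the right in 1.0 mM gels, at 10 of 10 and 13 of 16, and the somite and muscle markers the longest to the left in both gels. The share of all genes called is not shown.

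Markers of other cell types, in some of which the 10 genes are also active, were measured beside them. Of 9 tested somite and muscle markers, 7 were DE and lower at 72 h in the softer gel and 4 in the stiffer gel, opposite to the 10 genes. These counts have no share of all genes lower at 72 h beside them. *Meox2* was at -3.79 and -3.48, *Lbx1* at -3.25 and -3.47 and *Meox1* at -2.03 and -1.42, all DE in both gels, and *Uncx* at -1.51 and -0.55, DE in the softer gel. The summed level of that list was 249 to 427 CPM at 72 h and 809 to 919 CPM at 96 h in the softer gel, and 308 to 465 and 649 to 833 CPM in the stiffer gel, with *Myog* at 0 counts throughout. Of 13 tested endoderm markers 2 were DE and higher at 72 h in the softer gel, *Shh* (1.37) and *Ttr* (2.84), and 1 in the stiffer gel, *Shh* (1.46). Their summed level overlapped between the embedding times, at 556 to 611 and 490 to 566 CPM in the softer gel and at 407 to 525 and 404 to 539 CPM in the stiffer gel, and *Afp* was at 0 in all libraries. Of the endothelial and blood markers, 1 of 12 was DE in the softer gel, *Cldn5* (-1.92). In the stiffer gel there were 3 of 13, *Cldn5* (-2.37) and *Emcn* (-1.68) lower and *Gata1* (1.93) higher, the last on mean levels of 0.610 CPM at 72 h and 0.154 CPM at 96 h. With each library left out, 2 to 5 were lower, the 5 without replicate 1 at 72 h, and 0 were higher without replicate 2 at 72 h or without replicate 2 or 3 at 96 h. Estimates of these markers were split, with 6 of 12 above 0 in the softer gel and 6 of 13 in the stiffer gel. The adjusted p alone was passed by 3 higher and 1 lower at 72 h in the softer gel, and by 2 and 3 in the stiffer gel. That list summed to 435 to 530 CPM at 72 h and 430 to 451 CPM at 96 h in the softer gel, and to 397 to 587 and 500 to 575 CPM in the stiffer gel, with *Hba-x* and *Hbb-bh1* at 0 in all libraries embedded at 72 h.

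Spinal cord and motor neuron markers, which bear on *Isl1*, had 2 of 8 DE and higher at 72 h in the softer gel, *Pax6* (1.24) and *Tubb3* (1.02), and 1 lower, *Olig2* (-5.23, at a mean of 0.704 CPM at 96 h). The stiffer gel had 1 of 7 higher, *Mnx1* (1.27). *Pax6*, *Tubb3* and *Mnx1* are named here after their values were seen. The list summed to 109 to 127 CPM at 72 h and 71.2 to 78.0 CPM at 96 h in the softer gel, and to 114 to 142 and 76.2 to 95.3 CPM in the stiffer gel. Of 8 tested posterior markers, *T* was DE and higher at 72 h in both gels (1.17 and 1.42), and *Nkx1-2* (-2.29) and *Hes7* (-1.78) were lower in the softer gel. Of the 8, 6 had estimates below 0 in each gel, with medians of -0.55 in the softer and -0.34 in the stiffer gel. *T* made up most of the summed level, with means of 251 and 112 CPM for the earlier and the later embedding in the softer gel and of 203 and 75.6 CPM in the stiffer gel. Those markers summed to 291 to 355 CPM at 72 h and 148 to 214 CPM at 96 h in the softer gel, and to 252 to 290 and 131 to 147 CPM in the stiffer gel. The part of these cell types in the levels of the 10 genes was not tested.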

How the data were processed

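RNA of 12 pools of gastruloids was poly-A selected and sequenced as stranded libraries with paired 75 bp reads. The authors trimmed the reads with cutadapt 4.4, and aligned them to mm10 with STAR 2.7.10b against an Ensembl-based annotation of their own. The deposited counts are raw reads per gene. The counts are credited to STAR in the methods and to HTSeq in the table's name, and their strand setting is not given in the sources used here. FPKM values were computed by the authors with Cufflinks 2.2.1.3 and deposited in a second table. Another deposited table holds the authors' own log2 fold changes and adjusted p-values and was not used here.

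Groups were taken from the sample labels. Counts were analysed in R 4.3.3 with edgeR 4.0.16 (TMM, filterByExpr by group, whose limits were 10 counts and 15 in total, glmQLFit and glmQLFTest), leaving out 36 mitochondrial genes. Adjusted p-values cover all genes tested. The SE is the log2 fold change over the square root of F. Pairwise fits used 6 libraries each, and the effects of time, gel and their interaction all 12. Depth was 23011791 to 27609422 counts per library, and counting error weighs most on *Tbx5*. The fit was run on counts simulated with a single spread and no replicate effect, with changes put only into genes above a minimum mean count. That is no check of the fit for genes that vary more or have lower counts. The chi-squared per degree of freedom between replicates of a group was 9.34 to 113, so none was counted as a duplicate. Log2 CPM used a prior count of 2.

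The members and gene lists were chosen with earlier results of these data known. Of other lists, up to 4 called genes with the smallest p in the fit of embedding time over 12 libraries were named, and of the whole table the 3 nearest profiles per member. Markers at 0 counts are named besides. Some genes that this rule names are not reported here. Alternatives were RLE and upper quartile scaling, no low-count filter, at least 1 CPM in 3 libraries, DESeq2 1.42.0, limma-voom and limma 3.58.1 on log2(FPKM + 1) with a mean FPKM of at least 0.5, mitochondrial genes kept, no fold threshold, all 12 libraries in the pairwise fits, replicate number as a block, and each library left out. Leaving out the ribosomal RNA gene, and leaving out replicate 1 of 72 h, 1.5 mM with replicate 3 of 96 h, 1.0 mM, were chosen after seeing the data. Promoter windows were those of the RefSeq table for GRCm38.p6.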

Additional observations from a re-analysis of the deposited data

How the results depend on the processing

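Of 1405 values of single genes under the alternatives, 1320 kept their direction and their side of the thresholds, 16 lost a call, 38 gained one and 31 changed sign. In the stiffer gel (1.5 mM) the number of genes DE between embedding times was 1 to 6 with each library left out in turn and 2 with limma on log2(FPKM + 1), where *Tbx5* was not tested. In the softer gel (1.0 mM) leaving out each library gave 8 to 10, and across both gels 8 to 10. The share of all genes called is not reported here for these fits, nor for DESeq2 and limma-voom. Their numbers of members were thus not set against it. The gel comparisons and the interaction stayed at 0 with each library left out. Without the low-count filter, 6 members were called between gels at 96 h (0.222% of all genes) and 7 in the interaction (0.357%). The SE of *Hand1* between times in the softer gel then went from 0.562 to 0.104, and its edgeR adjusted p from 0.0352 to 1.15e-91. Its counts there ran from 1772 to 4773 at 72 h and from 144 to 980 at 96 h. The calls made without the filter are not taken as further support here, and the cause was not tested. By CPM in place of FPKM, 3 of the 10 genes kept their place in the order of levels, since CPM is not per length.

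The replicate number was checked as a block. Same-numbered libraries deviated together with r between 0.0439 and 0.302 over the 4 pairwise comparisons. In no comparison did all 3 numbers have r above 0.1, but r was positive throughout. This cut cannot show whether the numbers pair the libraries. In the stiffer gel and between gels at 72 h, 6 of 6 libraries correlated best with their own number, and 5 of 6 in the other comparisons, a hint from the data and not the design. The block gave 10 and 5 DE members between embedding times in the softer and the stiffer gel (4.80% and 3.46% of all genes), 0 and 6 between gels at 72 h and 96 h (0.103% and 0.322%), 9 and 0 for time and gel over 12 libraries (4.87% and 0.0427%), and 0 for the interaction (0.0244%).

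The 31 changes of sign were all in differences that were not called. With each library left out in turn, *Hand1* between embedding times in the stiffer gel ran from -0.16 to 0.56. Between gels at 72 h the values then ran from -0.50 to 0.052 for *Gata4*, -0.93 to 0.029 for *Tbx5*, -0.57 to 0.38 for *Tbx20*, -0.45 to 0.13 for *Nkx2-5*, -0.60 to 0.063 for *Mef2c*, -0.94 to 0.10 for *Hand1* and -0.095 to 0.16 for *Isl1*, and across both times from -0.18 to 0.41 for *Tbx5* and -0.049 to 0.37 for *Hand2*. *Isl1* between gels at 72 h, near 0 to begin with, turned to -0.023 with upper quartile scaling, -0.0046 with limma-voom, -0.0058 with the block, -0.036 with limma on log2(FPKM + 1) and -0.0082 without the ribosomal RNA gene. Without replicate 1 of 72 h in the stiffer gel and replicate 3 of 96 h in the softer gel, the values across both times were -0.086 for *Gata5*, -0.40 for *Tbx5*, -0.13 for *Mef2c*, -0.052 for *Hand1* and -0.20 for *Hand2*.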
